A study of Mus musculus with 22 samples.

Results

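The array described here, titled EBRTcH3 Vasa, measured RNA from EBRTcH3 mouse embryonic stem cells (ESCs) labelled as forced to express Vasa. The Ddx4 probe, given below, does not show that expression, so Vasa is used here for the label of the array. It was set against the array titled EBRTcH3, of the parental cells with no construct named. These 2 arrays are 2 of 22 in a series on how primordial germ cells become ESC-like cells in culture, and they lie on 1 slide. They were chosen by their titles alone. Each further EBRTcH3 array carried 1 other construct: Prdm14, Nanos2, Nanos3, Dnd, GFP or Blimp-1, and these 6 arrays gave the range against which the array labelled Vasa was read. All 8 cultures were of 1 cell line, kept in Knockout DMEM with KSR (a serum replacement) and LIF, the cytokine that holds mouse ESCs undifferentiated. The 7 construct arrays are described as RNA of GFP-positive cells, and the parental array is not, so the construct and the selection on GFP cannot be told apart in the first comparison. The GFP and Blimp-1 arrays are titled EF1a, after a promoter, and day 2; the labels used here name no promoter and no time for the Vasa construct. The Prdm14 array shares the slide of the Vasa-labelled and parental cells, Nanos2, Nanos3 and Dnd share another, and GFP and Blimp-1 one more. There was 1 array per group, so the difference between the Vasa-labelled and parental cells has no replicate check. Where bulk RNA is measured, fewer cells of a type and less RNA per cell cannot be told apart.

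Vasa is the ATP-dependent DEAD-box RNA helicase encoded by Ddx4 and a long-used marker of the germ line. In male germ cells it is a component of germ granules, where it takes part with PIWI proteins in making piRNAs, the small RNAs that silence transposons. Partners in that pathway include the Tudor-domain (Tdrd) proteins, which scaffold the granule, and the enzymes that cut and trim piRNA precursors. Many piRNA genes also have detectable RNA in ESCs, although the pathway is known for its work in the germ line.

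Several genes of this pathway were lower on the array labelled Vasa than on the parental array, and the promoter windows of 4 of them are shown because 3 hold the same E-box and the last does not. Each line gives the 250 bases before the annotated gene start, 5′ to 3′ on the gene's strand, from RefSeq on GRCm38.p6. Capitals mark CACGTG, a palindrome that reads alike on both strands. The windows lie at chr19:56825959-56826208 on the plus strand for Tdrd1, chr5:135349914-135350163 on the minus strand for Fkbp6, chr11:59787658-59787907 on the minus strand for Pld6 and chr2:119547628-119547877 on the minus strand for Exd1.
Tdrd1: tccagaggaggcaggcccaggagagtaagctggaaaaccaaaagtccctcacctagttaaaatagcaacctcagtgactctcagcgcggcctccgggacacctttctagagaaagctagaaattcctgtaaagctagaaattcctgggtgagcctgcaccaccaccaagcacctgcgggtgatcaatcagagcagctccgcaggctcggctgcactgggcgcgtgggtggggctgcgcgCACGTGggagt
Fkbp6: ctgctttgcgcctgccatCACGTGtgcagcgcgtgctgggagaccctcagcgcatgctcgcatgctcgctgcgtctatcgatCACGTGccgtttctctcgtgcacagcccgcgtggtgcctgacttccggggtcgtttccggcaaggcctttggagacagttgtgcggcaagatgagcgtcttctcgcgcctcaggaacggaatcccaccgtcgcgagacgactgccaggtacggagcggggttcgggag
Pld6: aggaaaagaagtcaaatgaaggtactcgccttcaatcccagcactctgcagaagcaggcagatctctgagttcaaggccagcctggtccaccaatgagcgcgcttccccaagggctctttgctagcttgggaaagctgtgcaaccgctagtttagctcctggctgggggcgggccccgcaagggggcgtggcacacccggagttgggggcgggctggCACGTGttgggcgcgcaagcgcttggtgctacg
Exd1: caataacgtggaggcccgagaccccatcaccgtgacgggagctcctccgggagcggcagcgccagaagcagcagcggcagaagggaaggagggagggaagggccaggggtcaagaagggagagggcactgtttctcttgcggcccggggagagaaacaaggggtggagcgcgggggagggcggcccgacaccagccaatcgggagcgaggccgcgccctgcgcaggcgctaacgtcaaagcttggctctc
The motif starts 11 bases before the gene start in Tdrd1 and 33 bases before it in Pld6, the window of Fkbp6 holds it 2 times, and that of Exd1 does not hold it. The windows shown were chosen by the motif, so they do not show how often the lower genes hold it. The windows of Tdrd5, Tdrd12 and Gtsf1, which were also at least 2-fold lower than in parental cells, do not hold it. Of the 18 piRNA pathway genes with a window, 8 hold the motif (44.4%): Piwil1, Mael, Tdrd1, Tdrd9, Mov10l1, Pld6, Fkbp6 and Stk31. The share over all 27025 genes with a window was 6.86%, and over the genes tested in these cells 9.39%. Among genes below the range of the 6 other construct arrays it was 9.76%, close to that background. A match describes letters in this window and says nothing of binding in these cells.

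Levels below are log2 of the spot signal minus log2 of that array's 75th percentile, so a gene at 0 is as bright as that percentile and 1 unit is a 2-fold step. A spot is called dim where the scanner software did not find it well above background. A probe whose spots were all flagged as outliers on an array also counts as dim there. A fold against a dim side is written "at least", from the lowest signal well above background on that array. The 75th percentile was 315 intensity units on the array labelled Vasa and 195 on the parental array, and 56.8% against 48.8% of probes were well above background. The 8 pluripotent cell markers were well above background on all 8 arrays. Of the markers of other cells, the Vasa and parental arrays detected 4 and 4 of 9 for fibroblasts, 2 and 1 of 8 for endoderm, 2 and 1 of 5 for trophectoderm, 1 and 0 of 5 for mesoderm, 4 and 3 of 5 for neuroectoderm and 2 and 1 of 6 for blood cells. The log2 summed level of the 9 germ cell markers was 4.03 on the array labelled Vasa, 5.39 on the parental array and 4.58 to 5.74 on the 6 others. The sum is taken on the linear scale, so its difference from parental cells is mostly that of Dppa3 and Tfap2c, given below. Kit and Dazl were near their parental level, and Prdm1 was highest of the 8 on the array labelled Vasa.

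The forced gene itself was not higher on the array labelled Vasa. The array has 1 probe for Ddx4, at chr13:113388616-113388675 on mm9, which begins at base 2636 of the transcript. Its level was 0.01 on the array labelled Vasa and 0.26 on the parental array. The other construct arrays gave 0.79 for Prdm14, 0.78 for Nanos2, 1.49 for Nanos3, 0.55 for Dnd, 0.95 for GFP and 1.12 for Blimp-1, so Vasa was the lowest of the 8. Against the mean of the 6 it was lower by 0.94 on the log2 scale (SE 0.40, limma adjusted p = 0.985). Whether the construct contains the probed sequence is not given in the labels, so the probe does not check the label. Beside these cells, Ddx4 stood at 1.37 in E11.5 primordial germ cells, 1.16 in the ESC line and 0.51 in the germ-cell-derived EGC line, 1 array each.

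Other forced genes could be checked where a probe was bright. Nanos3, an RNA-binding protein needed for primordial germ cell survival, was at 2.66 on its own array, against -2.30 on the array labelled Vasa and -2.48 on the parental array. Dnd1, whose product binds mRNAs of germ cells, was at 1.43 on the Dnd array, 0.24 on the array labelled Vasa and 0.28 on the parental array, although the Blimp-1 array was higher still at 1.92. Prdm1, which encodes Blimp-1, was highest of the 8 on the array labelled Vasa at 0.65, with the parental array at 0.48 and the Blimp-1 array at -1.38. Nanos2 was dim on all 8 arrays, and no probe was assigned to Prdm14 here.

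**Figure D1:**
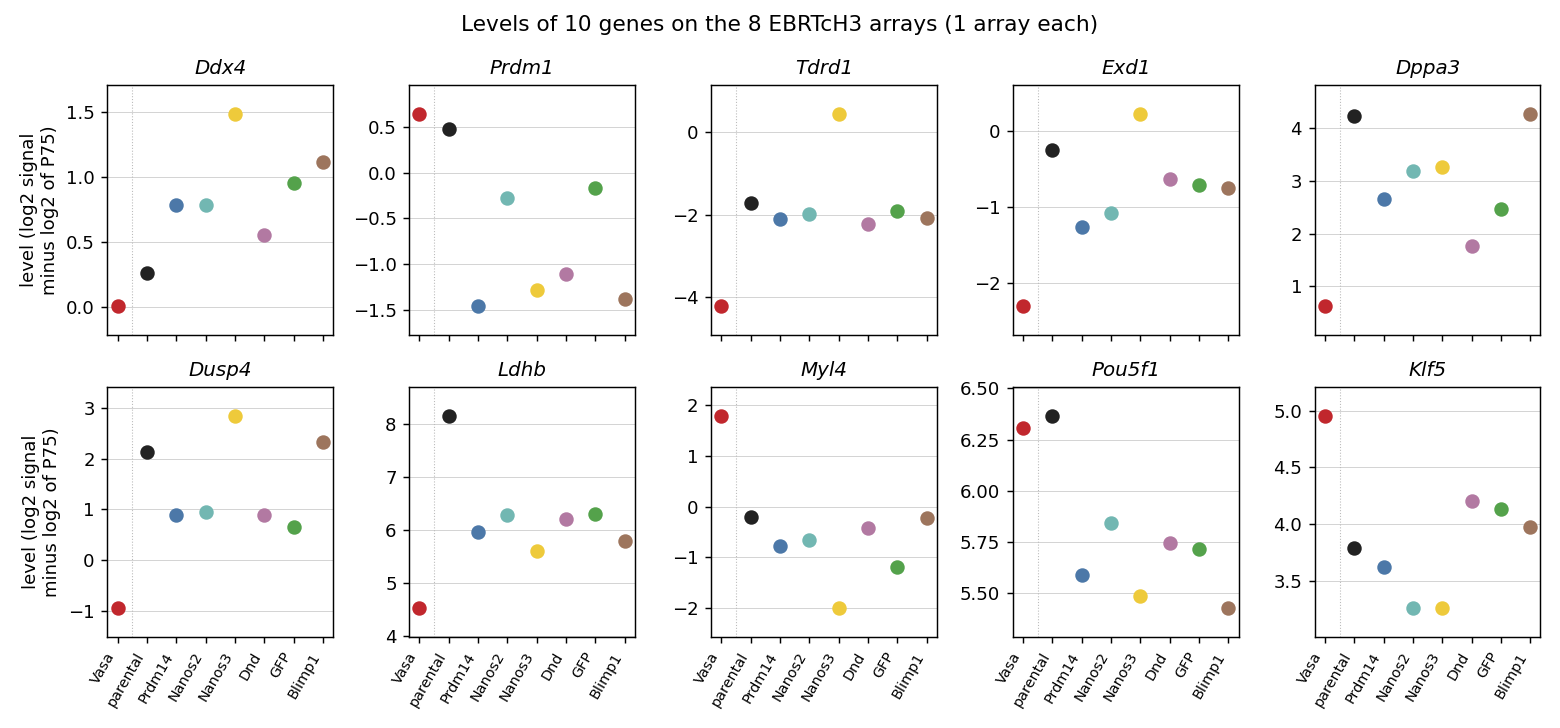
Levels (log2 signal minus log2 of the 75th percentile) of Ddx4 and 9 other genes on the 8 EBRTcH3 arrays, 1 point per array, Vasa at the left and the parental array beside it; filled points are well above background. Ddx4 sits lowest on the array labelled Vasa at 0.01, while Myl4 sits highest there at 1.78 and Dusp4 lowest at -0.95.

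Between the Vasa-labelled and parental cells, 16229 genes were measured on at least 1 side. On the array labelled Vasa 1349 of them were at least 2-fold higher (8.31%) and 1554 at least 2-fold lower (9.58%), of which 228 and 317 are bounds. The median difference over these genes was -0.17. Most of these genes lay inside the range of the 6 other construct arrays: 1023 of the higher genes (75.8%) and 1033 of the lower ones (66.5%). A level inside that range need not be near the level on any 1 of these arrays. A further 282 higher genes lay above that range and 349 lower genes below it.

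Epas1, which encodes the hypoxia factor HIF-2α, lay just above that range. It was at 2.83 on the array labelled Vasa and -2.76 on the parental array, a 47.9-fold difference, with the other 6 at 0.83 at the lowest, 1.62 at the median and 2.78 at the highest. The parental array lay apart and the array labelled Vasa was only 0.05 above the next. Genes listed for ATF4, the transcription factor of amino acid and endoplasmic reticulum stress, and for the unfolded protein response behaved likewise. Of 23 measured genes of that list 14 were at least 2-fold lower on the array labelled Vasa than in parental cells (60.9%, against 9.58% of all genes). None was higher. The median of the list was -1.24 against parental cells, yet -0.09 against the 6 others. Trib3, a pseudokinase induced by ATF4, was at 3.13 against 5.82, and Chac1, a glutathione-degrading enzyme, at 3.25 against 6.10. In the DNA methylation list 5 of 11 genes were higher than in parental cells (45.5%, against 8.31% of all genes) and none lower (median 0.91). Among them were the maintenance methyltransferase Dnmt1 at 0.09 against -1.15 and the de novo enzyme Dnmt3b at 3.64 against 2.34. The median of that list against the 6 others was -0.07.

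Against the 6 other construct arrays 19131 genes were measured. The Vasa level lay above their range for 2861 genes (15%) and below it for 1688 (8.82%), and by at least 2-fold above for 122 (0.638%) and below for 81 (0.423%). When each other array took its turn against the remaining 6, the counts above and below were 197 and 40 for Prdm14, 113 and 51 for Nanos2, 406 and 413 for Nanos3, 110 and 17 for Dnd, 117 and 32 for GFP and 633 and 20 for Blimp-1. The number of genes standing above was thus near that of Nanos2, Dnd and GFP, and the number standing below was second to Nanos3. Over the 13109 genes well above background on all 8 arrays, the array labelled Vasa was most like the Dnd array (Pearson r of levels 0.978). It was least like Nanos3 (0.933), with 0.959 to the parental array. These coefficients are across genes, which are not independent replicates.

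No gene passed the threshold of 0.05 in limma's test of the array labelled Vasa against the 6 others, which assumes that the 1 Vasa array varies like them (5 residual degrees of freedom, smallest adjusted p = 0.131). At an unadjusted p under 0.05 there were 892 genes (4.66%), 541 higher (2.83%) and 351 lower (1.83%); Tdrd1 and Exd1 were the piRNA genes among the lower ones. After quantile normalization 70 genes passed and after cyclic loess 61, every one higher on the array labelled Vasa; 54 and 46 of them have their spot in the middle rows of the array, and 68 and 60 were well above background on at most 1 of the 6 others. With slide as a block none passed (531 at an unadjusted p under 0.05). No difference below is therefore called changed by a test, and the values stand as measured.

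A position on the array moved with the genes that stood above. A band of rows across the middle of the 532, whose limits were set after these values were seen, holds the spots of 39.9% of tested genes, but 75 of the 122 genes at least 2-fold above the 6 (61.5%) and 51 of the 68 also at least 2-fold above parental cells (75%). For the 81 genes at least 2-fold below the range the share was 26 (32.1%). Outside the middle rows lay 47 of the 122 genes above. When the other arrays took their turn, that number was 82 of 197 for Prdm14, 48 of 117 for GFP and 57 of 113 for Nanos2. It was 66 of 110 for Dnd, 250 of 406 for Nanos3 and 373 of 633 for Blimp-1. Among genes dim on the 7 other arrays, 4.58% in the middle rows were well above background on the array labelled Vasa and 1.62% elsewhere. Other EBRTcH3 arrays showed 2.04% to 8.16% in the middle rows and 0.809% to 5.25% elsewhere. The part of array position in single genes was not tested, and the row is given below for each gene that stood far above.

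**Figure D2:**
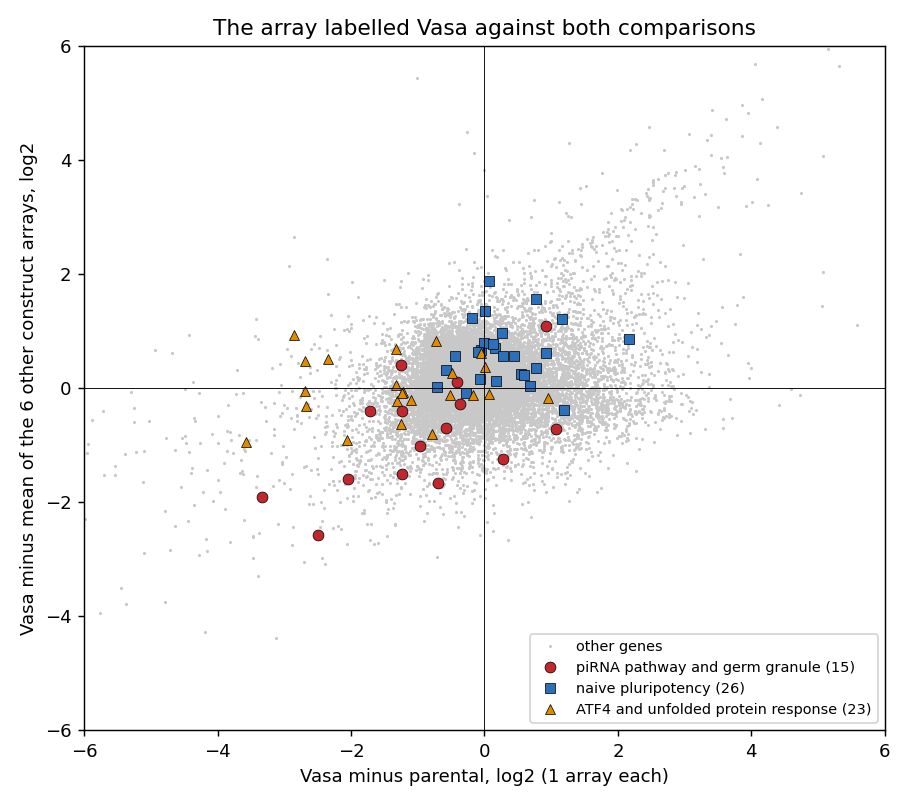
Each point is a gene well above background on the Vasa or parental array, with Vasa minus parental on the horizontal axis and Vasa minus the mean of the 6 other construct arrays on the vertical axis, both in log2; 6 genes lie outside the axes. Genes in the upper right and lower left stand apart from both, among them Cd68 and Myl4 above and Tdrd1, Dppa3 and Dusp4 below.

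The piRNA pathway and germ granule list was lower on the array labelled Vasa. Of its 21 genes on the array 15 were measured in Vasa-labelled or parental cells, and 7 were at least 2-fold lower (46.7%, against 9.58% of all genes) and none higher, with a median of -0.97 against -0.17 over all genes. Against the 6 others 18 were measured: 15 were below the mean of the 6, 8 lay below their range (44.4%, against 8.82%) and 1 above it. The median was -1.13, against -0.00 over all genes. On each gene's scale of distance from its median over the 8 arrays, the list stood at -0.98 on the array labelled Vasa, 0.04 on the parental array and between -0.13 and 0.31 on the 6 others. Without the Nanos3 and Blimp-1 arrays, which differ most from the rest, the median was -0.87 and 16 of 18 were below the mean. In the 8 genes outside the middle rows it was -1.13, and with normexp background correction it was -0.38.

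Tudor-domain genes were unlike each other. Tdrd1, whose product binds PIWI proteins in the granule, was at -4.21 on the array labelled Vasa and -1.71 in parental cells, and the 6 others ran from -2.21 through a median of -2.03 to 0.45. It was lower than in every other culture, by 3.98-fold against the next lowest and 5.63-fold against parental cells, and by 2.57 against the mean of the 6 (SE 0.95, limma adjusted p = 0.985). A second Tdrd1 probe was dim on all of these arrays but Nanos3 and gives no second reading. Tdrd5 was at -3.82 against -2.59 in parental cells and -3.52 to -0.86 in the 6. Tdrkh, a Tudor protein that helps trim piRNA ends, was at -2.15 against -1.46, with the 6 at -1.75 to 0.36. Tdrd7 was at -3.54, below the range of the 6 (-3.43 to -0.31), and dim in parental cells. Tdrd12 differed: it was 2.38-fold lower than in parental cells (3.12 against 4.37) but inside the range of the 6 (1.22 to 3.87).

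Genes that make or load piRNAs gave mixed values. Exd1, whose product belongs to the complex that makes piRNAs in the mouse, was at -2.30 on the array labelled Vasa and -0.25 in parental cells, and the 6 others were at -1.26 at the lowest, -0.73 at the median and 0.23 at the highest. All 7 other cultures were above the array labelled Vasa by at least 2.05-fold. Fkbp6, a co-chaperone of PIWI loading, was at -3.37 against -0.04, a 10.1-fold difference, but Nanos3 at -3.36 and Dnd at -3.18 were as low, so this gene splits the construct arrays. Its second probe gave -3.84 on the array labelled Vasa and -1.61 in parental cells. Pld6, the mitochondrial nuclease Zucchini, was 3.30-fold lower than in parental cells (-0.80 against 0.92) and inside the range of the 6 (-0.84 to -0.04). Gtsf1, a PIWI cofactor, was at 0.09 against 1.32 and also inside the range of the 6.

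The PIWI gene Piwil2 was at -2.80 on the array labelled Vasa, -2.23 in parental cells and -2.47 to -1.26 in the 6, a small step below. Mael, a granule protein, was at 1.35 against 1.77 and inside the range of the 6 (-0.23 to 2.03). Stk31, at -2.34 against -1.37, lay below the 6 (-2.04 to -0.73). Rnf17, which encodes another Tudor protein, was the member above the range, by 0.01: 0.56 on the array labelled Vasa, -0.36 in parental cells and -1.77 to 0.55 in the 6. Rnf17 and Piwil2 lie in a stretch of chromosome 14 described below. Piwil1, Asz1 and Tdrd6 were dim on all 8 arrays.

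**Figure D3:**
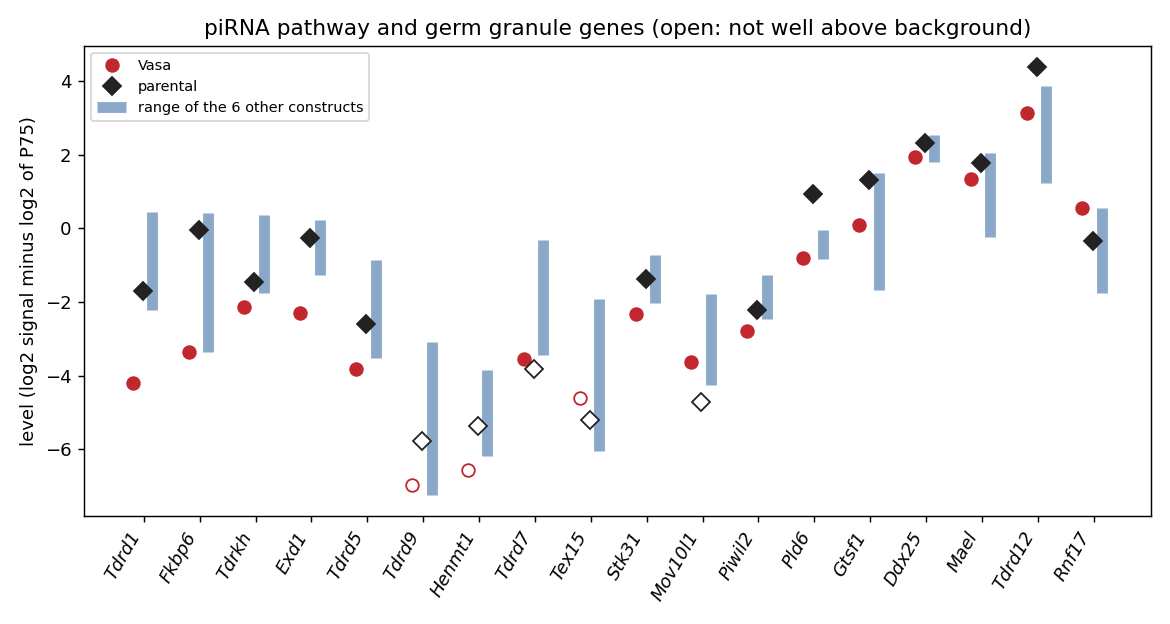
Level (log2 signal minus log2 of the 75th percentile) of the piRNA pathway and germ granule genes. The array labelled Vasa and the parental array are points, open where not well above background. The range of the 6 other construct arrays is a bar, which does not show detection. For 8 of the 18 measured genes the array labelled Vasa is the lowest of the 8 arrays, against 9.23% of all genes.

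Markers of primordial germ cells did not move together. Of 16 measured in Vasa-labelled or parental cells 2 were higher (12.5%, against 8.31% of all genes) and 3 lower (18.75%, against 9.58%). Against the 6 their median was -0.36, with 2 of 17 above the range (11.8%, against 15%) and 4 below (23.5%, against 8.82%). Without Blimp-1 the median was 0.03, without Prdm14 -0.13 and without Nanos2 -0.18. Dppa3 (Stella), a maternal factor that protects DNA methylation in the zygote and is a mark of naive ESCs, was lowest on the array labelled Vasa at 0.63, against 4.23 in parental cells, a 12.1-fold difference. The 6 others were at 1.76 at the lowest, 2.93 at the median and 4.27 at the highest, so every other culture was above Vasa by at least 2.19-fold (limma adjusted p = 0.973). Tfap2c, a transcription factor of germ cell specification, was at 2.86 against 3.90 and just below the 6 (3.07 to 4.54). The neural and germline RNA-binding gene Elavl2 was at 2.54 against 3.70 (the 6: 2.64 to 3.38). Prdm1 and Ifitm3 were the members above the range, Ifitm3 at 5.13 against 5.15 in parental cells and 3.44 to 4.73 in the 6.

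Other germ cell genes lay within the range: Kit, the receptor for stem cell factor, was at -0.33 against -0.17 in parental cells and -1.46 to 1.10 in the 6, and Dazl, an RNA-binding translational regulator, at -2.60 against -2.53 and -2.76 to -1.71. In the meiosis and later germline list 1 of 20 genes was higher than in parental cells (5%, against 8.31% of all genes) and 3 lower (15%, against 9.58%). The median against the 6 was -0.38 (-0.18 without Prdm14), with 2 of 25 above the range (against 15% of all genes) and 2 below (against 8.82%). Sycp3, a synaptonemal complex protein, was above the 6 at 1.38 (-0.17 to 1.25) but below the parental array at 1.74. Stra8, the gatekeeper of meiotic entry, was at -1.57 against -1.65 and inside the range of the 6 (-4.53 to 1.63).

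The naive pluripotency genes were at or above the level of the other construct arrays. Against parental cells 3 of 26 were higher and none lower (median 0.17). Against the 6, 24 of 26 were above the mean and 6 above the range (23.1%, against 15% of all genes), with a median of 0.59. This difference leans on 2 arrays: without Nanos3 the median was 0.26, and without Nanos3 and Blimp-1 it was 0.19 with 19 of 26 above the mean. Pou5f1 (Oct4), the core pluripotency factor, was at 6.31 on the array labelled Vasa and 6.37 in parental cells, with the 6 at 5.42 at the lowest, 5.65 at the median and 5.84 at the highest. Here the Vasa-labelled and parental cells stood together above the other constructs (Vasa against the 6: 0.67, SE 0.32, limma adjusted p = 0.985). Nr0b1 (Dax1), a nuclear receptor of the same network, had the same order, at 6.05 and 5.98 against 1.08 to 5.36, as had Tcl1, a co-activator of AKT, at 3.87 and 4.06 against 0.04 to 3.42. Nanog, at 5.23 against 5.24, and Sox2, at 3.84 against 3.66, lay inside the range of the 6 (2.29 to 5.52 and 2.94 to 3.99). Klf5, a Krüppel-like factor, stood above both, at 4.95 against 3.79 in parental cells and 3.26 to 4.20 in the 6. It lies in the chromosome 14 stretch, and its spot is in row 357.

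Targets of LIF and STAT3 leaned the same way, but Klf4, Tfcp2l1, Stat3 and Gbx2 belong to both lists, so the lists are not independent. Of 13 targets 4 were higher than in parental cells (30.8%, against 8.31% of all genes) and none lower, and 12 were above the mean of the 6. Their range was passed upward by 4 (30.8%, against 15%) and downward by 1 (7.69%, against 8.82%), with a median of 0.43. Spp1, the secreted phosphoprotein osteopontin, was at 5.09 on the array labelled Vasa and 4.04 in parental cells, with the 6 at 0.96 at the lowest, 2.99 at the median and 4.12 at the highest. Stat3 itself was at 2.93 against 2.34, level with the top of the 6 (2.33 to 2.92).

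Genes of early differentiated lineages gave mixed values, with simple-epithelium keratins low. In the trophectoderm list 1 of 10 genes was higher than in parental cells (10%, against 8.31% of all genes) and 3 lower (30%, against 9.58%). Below the 6 lay 4 of 13 (30.8%, against 8.82%) and above them 2 (15.4%, against 15%). The median against the 6 was -1.33 (-0.49 without Nanos3 and Blimp-1). The 3 that were lower are keratins. Krt7 was at -3.38 against -0.26 in parental cells, with the 6 at -1.95 at the lowest, 0.94 at the median and 4.35 at the highest. Its second probe was dim on the Vasa and parental arrays and well above background on the 6 others, from -4.65 on Dnd to 0.55 on Blimp-1. It gives a second reading against the 6, with Vasa lowest, but not against parental cells. Krt18 was at 1.94 against 4.81 (the 6: 3.05 to 7.24) and its partner Krt8 at 0.99 against 2.96 (1.56 to 6.26). All 7 other cultures were above Vasa for each keratin. The primed epiblast list split, with 3 of 11 higher and 3 lower than in parental cells (27.3% each, against 8.31% and 9.58% of all genes). Pou3f1 (Oct6), a POU factor of the primed state, was at 0.43 against 2.13 and below the 6 (0.76 to 5.13), and Lef1, a nuclear partner of β-catenin, was at -2.68 against -2.28 and below the 6 (-1.88 to 1.54). Of 16 Wnt targets 5 lay below the range of the 6 (31.25%, against 8.82% of all genes), namely Lef1, Tcf7, Axin2, Nkd1 and Nkd2. None lay above it (against 15%), with a median of -0.79 (-0.53 without Nanos3, -0.25 with normexp background correction). None of 12 differed by 2-fold from parental cells. On each gene's scale of distance from its median over the 8 arrays, the Wnt list stood at -0.25 on the array labelled Vasa. Prdm14 stood slightly lower at -0.31, and Nanos3 at 1.22. In the BMP target list 5 of 11 lay below the range (45.5%, against 8.82%) and 1 above (9.09%, against 15%), with a median of 0.05 (-0.19 without Prdm14).

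Among extraembryonic endoderm genes 3 of 9 were higher than in parental cells (33.3%, against 8.31% of all genes) and 1 lower (11.1%, against 9.58%). Above the 6 lay 5 of 15 (33.3%, against 15%) and below them 2 (13.3%, against 8.82%), although the median of the list against the 6 was -0.58. That median was -0.30 without Nanos3 and turned to 0.25 in the 10 genes outside the middle rows. Lama1, the laminin chain of the basement membrane, was at 0.93 on the array labelled Vasa and dim in parental cells, at least 21.3-fold apart, with the 6 at -2.39 to 0.46. Apoe, a lipoprotein component, was at 7.38 against 7.47 and above the 6 (5.15 to 6.86). The two-cell-like list, whose leading members such as Zscan4c belong to families of near-identical copies, had a median of -1.35 against the 6 (-0.80 without Prdm14). However, 0 of 13 genes lay outside their range (against 15% of all genes above and 8.82% below). Against parental cells 1 of 7 was higher and 1 lower (14.3% each, against 8.31% and 9.58% of all genes). Cd68, a lysosomal membrane protein named in the blood cell list, was at 1.34 against -0.52, with the 6 at -0.97 at the lowest, -0.40 at the median and -0.12 at the highest. It stood 2.76-fold above every other culture (limma adjusted p = 0.469), and its spot is in row 443. In the blood cell list as a whole 3 of 7 genes lay above the range of the 6 (42.9%, against 15% of all genes) and none below, with a median of 0.80, and the log2 summed level of the 6 blood cell markers was 2.24 on the array labelled Vasa, 0.64 on the parental array and 0.61 to 2.10 on the 6 others. The part of blood cell RNA in these values was not tested.

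**Figure D4:**
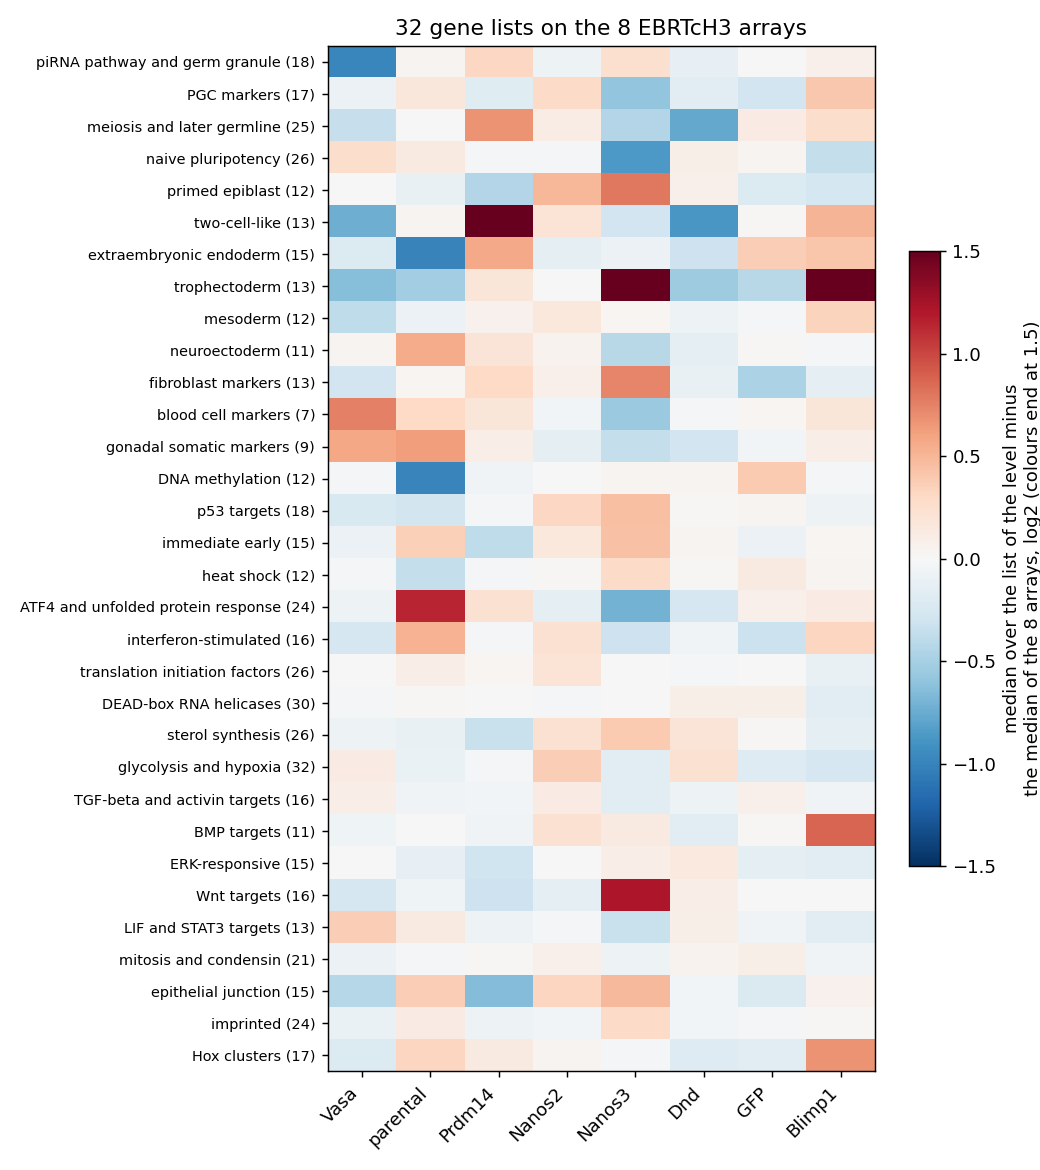
Median over each of 32 gene lists of the level minus the gene's median over the 8 EBRTcH3 arrays, in log2, with the Vasa column at the left and the parental column beside it; colours end at 1.5. The piRNA list is low in the Vasa column (-0.98), while the ATF4 list is high in the parental column (1.14) and near 0 in the Vasa column (-0.07).

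As a helicase of the DEAD-box family, Vasa is also known to act in translation. Of 30 other DEAD-box helicases 3 were higher than in parental cells (10%, against 8.31% of all genes) and 1 lower (3.33%, against 9.58%), with a median of 0.08. Above the range of the 6 lay 1 (3.33%, against 15%) and below it 3 (10%, against 8.82%), with a median of -0.03. The member above was Ddx17, at 6.63 against 6.25 in parental cells and 5.22 to 6.46 in the 6. Of 26 translation initiation factors 5 were higher than in parental cells and none lower, with a median of 0.04, and against the 6 their median was 0.03. Eif3a, a subunit of the initiation factor that scaffolds the ribosome's small subunit, was at 3.85 against 1.58 but inside the range of the 6 (3.33 to 4.81). The p53 target list had 6 of 18 below the range of the 6 (33.3%, against 8.82% of all genes) and none above (against 15%), with a median of -0.28. Against parental cells 3 of 17 were higher (17.6%, against 8.31%) and 2 lower (11.8%, against 9.58%), with a median of 0.00. Among the targets below the range was the cell cycle inhibitor Cdkn1a at 0.87 against 2.04 (1.33 to 2.27). In the heat shock list 3 of 12 genes lay below the 6 (25%, against 8.82%) and 2 above (16.7%, against 15%), with a median of -0.11. Against parental cells 2 were higher (16.7%, against 8.31%) and none lower. Of those below the 6, the co-chaperone gene Bag3 was at 0.31 against 0.12 in parental cells and 0.87 to 2.22 in the 6. A second Bag3 probe did not repeat this: it read -3.04 on the array labelled Vasa, -2.77 in parental cells and -3.42 on Nanos2.

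Single genes that stood farthest from all 7 other cultures were examined next. Below, the 8 named by the rule were well above background on at least 6 of the 7 others. Dusp4, a phosphatase that switches off ERK, was at -0.95 on the array labelled Vasa and 2.14 in parental cells, with the 6 at 0.65 at the lowest, 0.92 at the median and 2.85 at the highest. It was 3.04-fold below the next lowest culture, and its second probe had the same order (-0.62 against 1.45, with the 6 at -0.35 or above). Crabp1, which binds retinoic acid in the cytoplasm, was at -2.06 against -0.43, with the 6 closely grouped between -0.50 and 0.17, and was 2.95-fold below the next lowest (limma adjusted p = 0.328). Cdkn2a, the cell cycle inhibitor locus, was at -4.32 against -2.55 and -2.70 to -0.92, and Gadd45g, a stress and differentiation gene, at -2.39 against -0.19 and -0.84 to 1.60. Chst1, a sulfotransferase gene, was dim on the array labelled Vasa and at -1.64 in parental cells and -2.93 to -0.93 in the 6, at least 3.01-fold below every other culture. Fhl2 and Tmcc3 were 3.07-fold and 2.85-fold below the next lowest, and Tdrd1 completes the 8.

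Above, the 8 genes named by the same rule were mostly dim elsewhere and in the middle rows. Ltbp1, Slc17a6, Mfsd13b, Kcnc2, Trim60 and Adh6a, in rows 254, 289, 290, 223, 291 and 221, were at -1.79 to -0.68 on the array labelled Vasa and dim in parental cells. Further probes of Slc17a6, Mfsd13b, Kcnc2 and Adh6a were dim on the array labelled Vasa, and that of Ltbp1 read -3.59 there against -3.06 in parental cells, so none of these repeated the difference. Ceacam20, an adhesion molecule gene in row 475, was at 0.14 against a dim parental spot and -4.92 to -2.07 in the 6. Myl4, the embryonic and atrial myosin light chain, rested on better ground. It was at 1.78 on the array labelled Vasa and -0.20 in parental cells, with the 6 at -2.00 at the lowest, -0.72 at the median and -0.22 at the highest, from a spot in row 74. That is 3.94-fold above every other culture (2.66 above the mean of the 6, SE 0.63, limma adjusted p = 0.512), and its second probe was higher than the mean of the 6 by 3.41.

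Of the genes far from parental cells and also beyond the 6, the 10 highest were Epas1, Dock5, Celsr1, Nectin1, Msln, Chga, Parvb, Cisd3, Apol6 and Nkx6-3, 6.48-fold to 47.9-fold higher. In 6 of these 10 the parental array lay below the range of the 6. Further probes of Dock5 lay inside the range of the 6, the brightest at -1.08 with GFP at -0.68. Of the further probes of Epas1 and Parvb, those well above background on the array labelled Vasa were highest there. Nkx6-3, a homeobox gene, was the one at least 2-fold above all 7 other cultures, at 1.19 against -1.51 and -6.01 to -0.40 in the 6, 3.00-fold above the next. Cisd3, a mitochondrial iron-sulfur protein gene, was at 1.47 against -1.31 and -0.58 to 0.64. The 10 lowest were Ldhc, H2-DMb1, Ldhb, Dppa3, Tmcc3, Fhl2, Pdcl2, Fkbp6, Samd12 and Hbq1a, 8.88-fold to 18.1-fold lower. Ldhc, the testis lactate dehydrogenase, was at -4.02 against 0.16, with the 6 at -2.99 at the lowest, -1.55 at the median and 0.21 at the highest. Ldhb, the heart-type subunit, was at 4.53 against 8.15, with the 6 between 5.62 and 6.31, so the parental array was above and the array labelled Vasa below all of them (-1.51 against the mean of the 6, SE 0.38, limma adjusted p = 0.580).

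Ldhb pointed to its chromosome, since many of its neighbours were lower too. Genes were placed by their probes on mm9, and for genes well above background on all 8 arrays the level was expressed relative to the gene's median over the 8 and to the array's own median. The stretches were chosen after these values were seen and have no test. On chromosome 6 from about Bcl2l14, whose probe starts at base 134387811, to 150 Mb, 65 genes had a median of -0.94 on the array labelled Vasa (quartiles -1.18 and -0.33), against -0.04 on the parental array, 0.55 on Prdm14 and -0.07 to 0.05 on the other 5. In this stretch 37 genes (56.9%) lay below the range of the 6, against 10.98% of all such genes, and 36 (55.4%) below all 7, against 7.96%. The stretch holds 8 of the 81 genes at least 2-fold below the 6, among 102 of its genes measured against them (against 0.423% of all genes). Of its 78 genes measured against parental cells 32 were at least 2-fold lower (41.0%, against 9.58% of all).

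The neighbours of Ldhb there do unlike things. Bcat1, which starts the breakdown of branched-chain amino acids, was at 4.13 on the array labelled Vasa and 5.64 in parental cells, with the 6 between 4.55 and 6.55. Med21, a Mediator subunit, was at 1.59 against 2.54 (2.63 to 3.83), and the kinase gene Etnk1 at 0.03 against 2.09 (0.47 to 1.73). The ribosomal protein gene Rps4l was at 6.31 against 7.54 (7.02 to 7.69). Each was lower than in all 7 other cultures. Not every gene followed: Dennd5b, in the same stretch, was at -0.18 against -2.49 and above all of the 6, and Gprc5a was at 2.49 against 2.94, inside the range of the 6 (1.96 to 3.06).

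Other stretches were higher. On chromosome 9 between 10 and 52 Mb, 232 genes had a median of 0.42 on the array labelled Vasa, -0.05 on the parental array and -0.07 to 0.00 on the 6, and 116 of the 232 lay above the range of the 6, against 17.9% of all such genes. The rest of that chromosome (52 to 130 Mb, 458 genes) stood at -0.01. On chromosome 14 between 50 and 80 Mb, 217 genes had a median of 0.55 on the array labelled Vasa, and Nanos2 at 0.47 and Dnd at 0.49 were alike, against -0.12 on the parental array and -0.38 to -0.20 on Prdm14, Nanos3, GFP and Blimp-1. Without the middle rows Vasa stood at 0.49 there and the highest other array at 0.50. Between 80 and 130 Mb, 49 genes were at 0.46 on the array labelled Vasa against 0.12 on the parental array and -0.21 to 0.06 on the 6, and Klf5 and Spry2 lie there. On chromosome 15 between 72 and 92 Mb, 251 genes were at 0.28, with Prdm14 and Nanos2 at 0.19, against -0.09 on the parental array and -0.21 to -0.07 on the rest. Apart from the chromosome 14 exception just given, the array labelled Vasa kept its place beyond the other 7 in these stretches under all 7 alternative settings tried.

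Over 252 windows of 10 Mb with at least 10 genes, the array labelled Vasa was above all 7 others by 0.25 or more in 6 and below in 3. Of those 3, 2 are on chromosome 6 and the last is the first 10 Mb of chromosome 14, where 19 genes stood at -1.01 on the array labelled Vasa and 0.33 on the parental array, with the 6 from -0.15 to 0.85 (Nanos3). The same count above was 9 for Prdm14, 2 for the parental array, 1 for Nanos3 and 0 for each of the rest. The count below is given for the array labelled Vasa alone, and other arrays also have windows that far below the rest. Nanos3 stood at -0.74 on chromosome 4 from 10 to 20 Mb and at -0.84 from 20 to 30 Mb, with the next lowest array at -0.15 in each. The parental array stood at -0.50 on chromosome 8 from 60 to 70 Mb, with the array labelled Vasa next at -0.12. The 5 stretches hold 179 of the 1349 genes at least 2-fold higher than in parental cells (17.3% of the 1032 measured there, against 8.31% of all). They also hold 84 of the 1554 lower genes (8.14%, against 9.58%). Of the 10 genes named as highest above parental cells, Dock5, Celsr1, Nectin1, Parvb and Apol6 lie in them. DNA copy number was not measured here, and its part in these values was not tested.

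**Figure D5:**
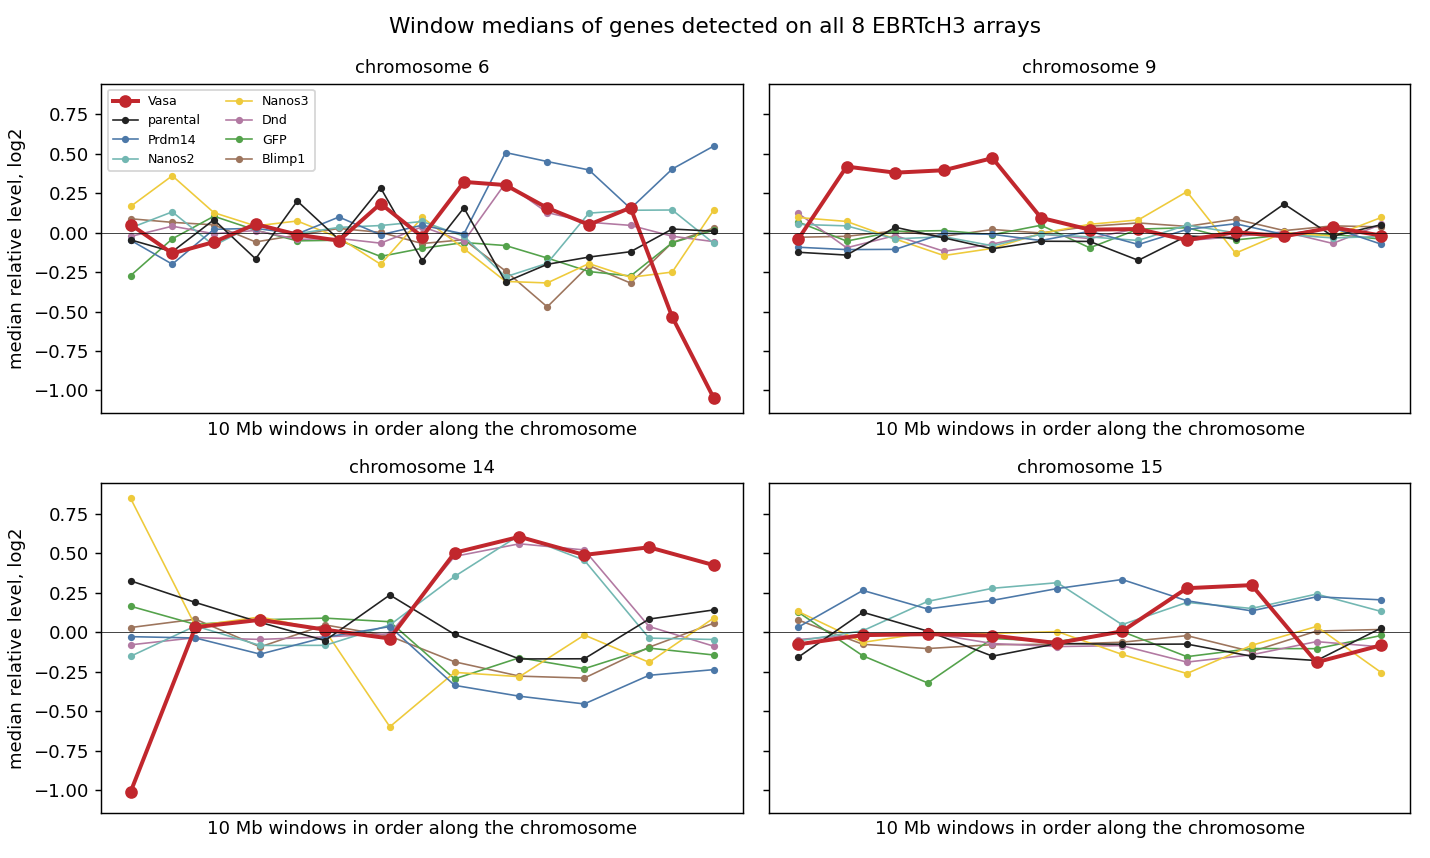
Median relative level (log2, gene minus its median over the 8 arrays and minus the array's median) in successive 10 Mb windows of chromosomes 6, 9, 14 and 15, 1 line per array, with the array labelled Vasa drawn above the rest in the legend. The Vasa line lies below the others at the end of chromosome 6 and in the first window of chromosome 14, and above them in the first part of chromosome 9; from 50 to 80 Mb of chromosome 14 it runs with Nanos2 and Dnd.

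Y-linked genes were also low on the array labelled Vasa. The 4 that were well above background on all 8 arrays had a median relative level of -0.83 there and 0.65 on the parental array, with Dnd at -0.98 and Nanos3 at -0.81 alike and the other 4 at 0.07 to 0.56. Eif2s3y, a Y-linked translation initiation factor, was at 0.85 on the array labelled Vasa and 3.52 in parental cells, and the Dnd array at 0.90 was alike, whereas the other 5 were at 2.07 to 2.64. Ddx3y, a Y-linked DEAD-box helicase, was at -3.13 against 1.15, dim on the Dnd array and between 0.77 and 1.66 on the other 5. Uty, a Y-linked relative of the histone demethylase Kdm6a, was dim on the array labelled Vasa and at -0.99 in parental cells, with the 6 between -4.25 and -2.34.

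The 5 genes whose levels over the 8 EBRTcH3 arrays were most like Ddx4, by Pearson correlation as a description, were Trpv2 (0.98), Jag2 (0.96), Rgs14 (0.96), Polk (0.96) and Rfxap (0.95). The choice by likeness fixes that they were low on the array labelled Vasa, as Ddx4 was, and a second Polk probe was not lowest there (-3.36, with Nanos2 at -3.45). Trpv2, a cation channel gene, was at -3.42 on the array labelled Vasa and -2.64 in parental cells, with the 6 at -2.32 to -1.03, and Jag2, a Notch ligand gene, was at -1.64 against -1.48 and -0.83 to 0.25.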

How the data were processed

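The arrays were 1-colour Agilent mouse arrays, hybridised with Cy3-labelled RNA by a low-input amplification protocol per the labels' protocols. Each deposited scanner file gives background-subtracted intensity per spot (the processed signal), per the file headers from Agilent Feature Extraction. The authors' deposited value table lay within 1% of that intensity for 95.4% of values, and its column medians were 27.1 for the array labelled Vasa and 18.3 for parental cells. The 75th percentile ranged from 195 to 465 intensity units over the 8 EBRTcH3 arrays; the number of arrays limits the precision.

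Control spots were left out, spots of a probe were averaged, and log2 intensity minus the array's log2 75th percentile was used. Spots flagged as outliers were left out of the average where the probe had an unflagged spot. A probe with every spot flagged on an array kept its value there and was counted as dim. A gene took its probe with the highest mean level over 22 arrays (28103 genes from 41174 probes). Names came from RefSeq by accession for 27013 probes, by symbol for 5017 and by synonym for 799, and from the file for 8344. Probe coordinates are those of the files, mm9. Vasa against parental cells used a 2-fold threshold with no test. Vasa against the 6 others used their range and limma 3.58.1 in R 4.3.3, with Benjamini-Hochberg adjusted p-values at 0.05. On simulated data that fit recovered 0% of genes shifted by 1 on the log2 scale, 6% by 2, 74% by 4 and 98% by 6.

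Named genes were the forced genes, the 10 highest and lowest against parental cells that also lay beyond the 6, the 8 largest gaps above and below all 7, up to 4 members a list with the largest limma differences, a fixed set of pluripotency and germ cell genes, and the 5 most like Ddx4. Other members of the gene lists, the neighbours on chromosome 6 and the Y-linked genes were named after their values were seen. The members and gene lists were chosen with earlier results of these data known. Alternatives were other normalizations, normexp background correction with an offset of 50, the authors' table, mean of probes, other detection filters, slide as a block and leaving out each array.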

Additional observations from a re-analysis of the deposited data

How the results depend on the processing

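Of 96 alternatives, 76 left a result within its limits, 20 moved it and 0 reversed it. Normexp background correction gave 777 genes higher and 690 lower than in parental cells, and 40 above and 4 below the 6 by at least 2-fold. Averaging probes gave 206 above. With no filter on dim probes 9823 genes were lower than in parental cells, 269 lay above and 184 below the 6, and 11 piRNA genes were counted. Requiring detection on every array gave 53 above, and counting the parental array among the others gave 68 above and 37 below. Leaving out 1 of the 6 gave 130 to 201 above (201 without Prdm14) and 91 to 127 below (126 without Dnd, 127 without GFP), with 0 genes past limma's threshold in each. That count was 0 in the reported fit, 70 after quantile and 61 after cyclic loess normalization. Leaving out the middle rows of the array, an alternative chosen after seeing the data, gave 875 genes higher, 810 lower and 47 above, partly because fewer genes were tested. Where no construction shows it, the cause was not tested. The Ddx4 difference from parental cells ran from -0.26 to -0.18. No paired analysis was possible because each group has 1 array and the labels give no replicate numbers. Signal over background limits what the dim genes can show.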
